A study of Mus musculus with 6 samples.

Results

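Histone deacetylases (HDACs) of the zinc-dependent families were followed in mouse dendritic cells before and after coculture with spleen stroma. The set was 10 genes chosen by symbol, Hdac1 to Hdac9 and Hdac11, and all 10 were found among the 15282 genes of the table. All 6 libraries came from wild-type C57BL/6 bone marrow cells grown for 6 days with GM-CSF and IL-4 and then given lipopolysaccharide (LPS) for 24 hours. Cells purified on magnetic beads against CD11c, a dendritic cell integrin, formed the first group, mature dendritic cells (maDC). The second group (diffDC) came from maDC kept for 9 days on spleen stromal cells. Both groups had thus been given LPS, but time since LPS and total culture time differed between them. The labels name no group kept as long without stroma, so coculture and time cannot be told apart. The labels name 3 libraries per group, but the table gave 1 pooled read number per gene and group, so no difference has a replicate check. The sources used here do not give how diffDC were separated from the stroma.

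HDACs take acetyl groups off lysines of histones and other proteins, and acetylated histones mark active promoters and enhancers. Class I enzymes (Hdac1, Hdac2, Hdac3, Hdac8) are mainly nuclear, and most work as the catalytic core of corepressor complexes such as NuRD, Sin3, CoREST and NCoR/SMRT. Class IIa enzymes (Hdac4, Hdac5, Hdac7, Hdac9) have little catalytic activity of their own, bind MEF2 transcription factors, and leave the nucleus when kinases phosphorylate them and 14-3-3 proteins bind. Hdac6, of class IIb, acts in the cytoplasm on tubulin, and Hdac11 is the sole class IV enzyme. In myeloid cells, HDACs are known both to restrain and to enable inflammatory gene expression after LPS.

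Reads summed to 69190437 in maDC and 89836110 in diffDC. Of 8 dendritic cell markers, 7 were lower in diffDC and none higher. The gene for CD11c, Itgax, did not pass, with per-length levels of 103 in maDC and 89.3 in diffDC and a log2 ratio of -0.21, which was 0.23 with the library factor of the authors. Of 9 macrophage markers, 8 were higher in diffDC, and their summed per-length level was 669 in maDC and 7008 in diffDC. Fibroblast and reticular stroma markers were higher in 11 of 14 cases and lower in 1, with summed levels of 23.9 and 408, and none was at 0 in either pool. All 7 proliferation markers were higher, with summed levels of 110 and 402. Other lists were small or low: of 5 endothelial markers 4 fell, of 5 granulocyte markers 2 rose and 3 fell, Ly6g being at 0 in diffDC, and of 2 T cell markers 1 rose and 1 fell. Levels here are RPKM values, reads per kilobase of deposited gene length relative to the TMM-scaled library size. In pooled bulk RNA, a change in the share of cells of a type and a change in RNA per cell cannot be told apart.

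Of the 10 genes, 1 rose and 1 fell in diffDC, Hdac9 and Hdac11. A rise or fall means a scaled ratio of at least 2-fold whose 95% counting interval excluded no difference, a rule passed by 44.3% of all genes, 23.3% higher and 21.0% lower. The share of called HDAC genes, 20%, was thus under that background. The other 8 genes had log2 ratios of diffDC over maDC from -0.65 to 0.67. The median log2 ratio of the 10 was 0.24, beside 0.03 over all genes.

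Upstream sequences are given for Hdac9 and Hdac11, the only members that passed the rule. RefSeq lists a pair of starts for Hdac9, a distal one and one inside the gene, and the bases before each are shown. They lie at chr12:34917096-34917345 and chr12:34528890-34529139 on the minus strand of GRCm38.p6. For Hdac11 the stretch before the first annotated exon is shown, at chr6:91156565-91156664 on the plus strand. Capitals mark the TATA box TATAAA and the GC box GGGCGG, searched on both strands.
Hdac9 distal start: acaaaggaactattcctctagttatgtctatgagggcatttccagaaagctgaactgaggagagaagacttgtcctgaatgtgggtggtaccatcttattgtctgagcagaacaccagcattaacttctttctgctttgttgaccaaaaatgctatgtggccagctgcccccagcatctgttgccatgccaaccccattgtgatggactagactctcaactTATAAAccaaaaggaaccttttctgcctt
Hdac9 internal start: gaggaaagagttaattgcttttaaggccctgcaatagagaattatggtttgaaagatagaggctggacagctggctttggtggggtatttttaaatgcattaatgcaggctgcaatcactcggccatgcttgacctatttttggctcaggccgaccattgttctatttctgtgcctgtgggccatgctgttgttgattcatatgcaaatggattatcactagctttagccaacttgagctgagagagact
Hdac11: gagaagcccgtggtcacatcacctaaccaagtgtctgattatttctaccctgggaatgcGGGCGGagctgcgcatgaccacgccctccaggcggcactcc

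Both Hdac9 windows were poor in G and C. In the full RefSeq windows of 300 bases, 250 before and 50 after the start, the distal window was 44.0% GC with 0 CpG dinucleotides and the internal window was 45.3% GC with 3. Over all 32841 windows the median was 52.7% GC and 7 CpG, and 20.1% and 24.0% of windows had a GC content as low as the distal and the internal window. The 10 windows of the other 7 members found in the RefSeq set were 49.7% to 73.7% GC, with 5 to 36 CpG. The windows of Hdac1 and Hdac3 were not analysed here.

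Motifs were counted in the same 300-base windows on both strands. A GC box was in 6 of the 12 member windows, those of Hdac2, Hdac4, Hdac5, Hdac6, Hdac11 and 1 of the 4 of Hdac7, and in 35.7% of all windows. TATAAA was in 2, the distal Hdac9 window and that of Hdac8, and in 13.6% of all windows. It began 29 bases before the distal Hdac9 start. CCAAT was in 5 of the 12 windows and in 37.4% of all. The MEF2 motif was in 1 member window, that of Hdac5, and in 3.19% of all. CACGTG was in the window of Hdac5 alone among members and in 7.15% of all windows. A match describes the letters and not a bound site, and the Hdac7 windows overlap in part.

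Hdac9, a class IIa enzyme that also gives a shorter MEF2-binding form without the deacetylase domain, was the member that rose. It had 110.41 reads in maDC and 3848.07 in diffDC, levels of 0.344 and 8.12 per length. The maDC pool was thus the low one, and by deposited length Hdac9 moved from the last of the 10 in level to the fifth. After scaling it was 23.6-fold higher (interval 19.6 to 28.9), a log2 ratio of 4.56, and 4.31% of all genes had a ratio as high. This protein-coding gene (Entrez 79221) lies on chromosome 12, minus strand, from 34047580 to 34917095 (GRCm38). Its read numbers are sums for the gene as a whole, so neither the start used nor the form made can be read from them. Hdac9 rose in the same pools in which the stroma, macrophage and proliferation markers rose, and their part in it was not tested.

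Hdac11, the class IV enzyme, which removes long fatty acyl groups better than acetyl groups and is known to repress Il10 in mouse macrophages, was the member that fell. It had 455 reads in maDC and 159 in diffDC, levels of 3.13 and 0.740 per length. The diffDC pool was the low one, and Hdac11 became the least abundant of the 10 there. It was 4.23-fold lower (interval 3.52 to 5.10), a log2 ratio of -2.08, and 12.3% of all genes had a ratio as low. It is protein coding (Entrez 232232) and lies on chromosome 6, plus strand, from 91156665 to 91174692. Of its annotated exon bases, 15.4% are shared with Gm44002 on the opposite strand, whose reads cannot be told apart from Hdac11 without strand. The dendritic cell markers, summed levels 7416 and 384, fell in the same pools, and their part in the fall of Hdac11 was not tested.

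**Figure D1:**
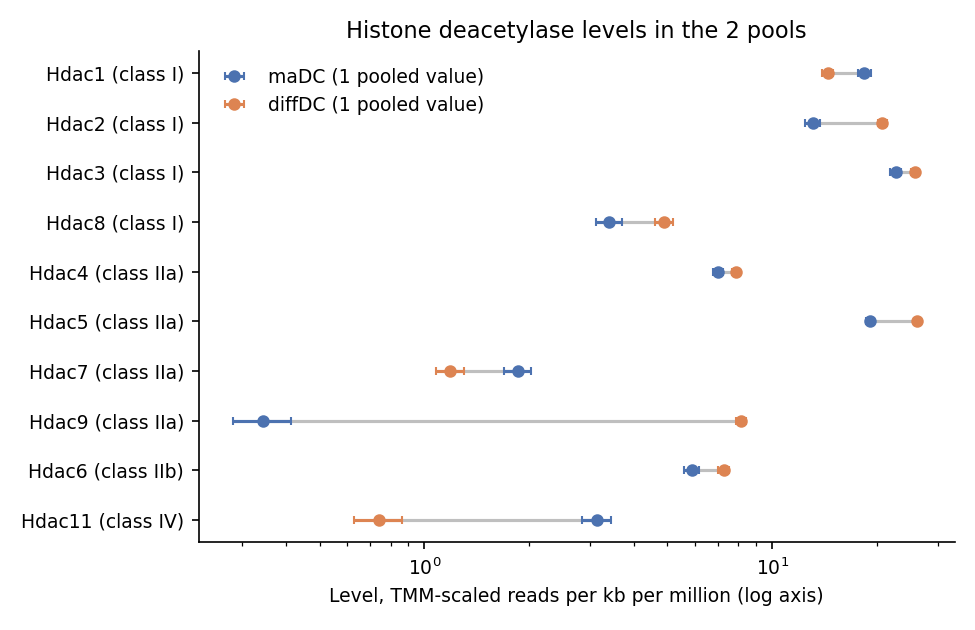
Level of each HDAC gene in the maDC and the diffDC pool, as TMM-scaled RPKM on a log axis, each point 1 pooled value with its 95% counting interval. Hdac9 goes from 0.344 to 8.12 and Hdac11 from 3.13 to 0.740, while the points of each other gene lie less than 2-fold apart.

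Among class I enzymes, no gene passed the rule, and the genes differed in their ratios. Hdac1 and Hdac2 are close paralogs that share the NuRD, Sin3 and CoREST complexes. Hdac1 had 2354.92 reads in maDC and 2726.75 in diffDC, per-length levels of 18.4 and 14.4. Its log2 ratio was -0.35 (interval -0.43 to -0.27), but 0.08 with the library factor of the authors, so its direction depends on the scaling. Hdac2 had 1698 and 3980 reads, levels of 13.1 and 20.7. Its log2 ratio was 0.67 (interval 0.58 to 0.75), under the limit of the rule, and 1.10, past it, with the library factor of the authors. In maDC Hdac1 was thus above Hdac2, and in diffDC it was below.

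Hdac3, the catalytic subunit of the NCoR/SMRT complex, had 2950.89 reads in maDC and 4939.25 in diffDC. Its levels, 22.7 and 25.7, were the highest of the 10 in maDC and the second highest in diffDC. Its log2 ratio was 0.18 (interval 0.11 to 0.25). Hdac8, which deacetylates the cohesin subunit Smc3, had 509 and 1080 reads, levels of 3.40 and 4.88. It was the least abundant class I gene in both pools, with a log2 ratio of 0.52 (interval 0.37 to 0.68). The summed class I level was 57.6 in maDC and 65.8 in diffDC.

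Of the class IIa genes other than Hdac9, none passed the rule. Hdac5 had 4907.74 reads in maDC and 9926.14 in diffDC, levels of 19.1 and 26.1, and a log2 ratio of 0.45 (interval 0.40 to 0.50). It held the most reads of the 10 genes in both pools. Hdac4 had 3731.06 and 6231.23 reads, levels of 6.97 and 7.88, and a log2 ratio of 0.18 (interval 0.12 to 0.24). The exons of Hdac4 overlap the long noncoding RNA gene Gm26720 on the opposite strand over 22.4% of their bases. Hdac7, which is also known for roles in thymocytes and endothelium, had 484.49 and 456.8 reads, levels of 1.86 and 1.19. Its log2 ratio was -0.65 (interval -0.83 to -0.46), and it was negative under each of the 4 scalings tried.

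Hdac6, the tubulin deacetylase of class IIb, had 1537 reads in maDC and 2813 in diffDC. Its levels were 5.86 and 7.26, and its log2 ratio was 0.31 (interval 0.22 to 0.40). Hdac6 therefore did not pass the rule. Hdac10, the other class IIb enzyme and known as a polyamine deacetylase, was in the table but was not among the 10 genes chosen, and it is named here after its values were seen. It had 113 reads in maDC and 1678 in diffDC, 10.1-fold higher (interval 8.30 to 12.3). Its log2 ratio was 3.33, so it passed the rule as Hdac9 did.

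The 4 library scalings shift all genes by one amount, and most signs did not depend on them. Relative to TMM, log2 ratios were 0.44 higher with the library factor of the authors, 0.19 higher with read totals and 0.02 lower with DESeq2 size factors. Of the 10 genes, 7 had a positive log2 ratio under all 4 scalings and 2, Hdac7 and Hdac11, a negative one. The remaining gene was Hdac1. Hdac9 was at 4.54 or above and Hdac11 at -1.64 or below, so both passed the rule under each scaling. With the library factor of the authors Hdac2 passed too, against a background of 47.9% of all genes called, 32.2% higher and 15.7% lower. In the authors' deposited table all 10 genes had a q-value under 0.05, as did 87.2% of all genes. The largest of these 10 q-values in the authors' deposited table were 0.0271 for Hdac1 and 0.0182 for Hdac7.

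**Figure D2:**
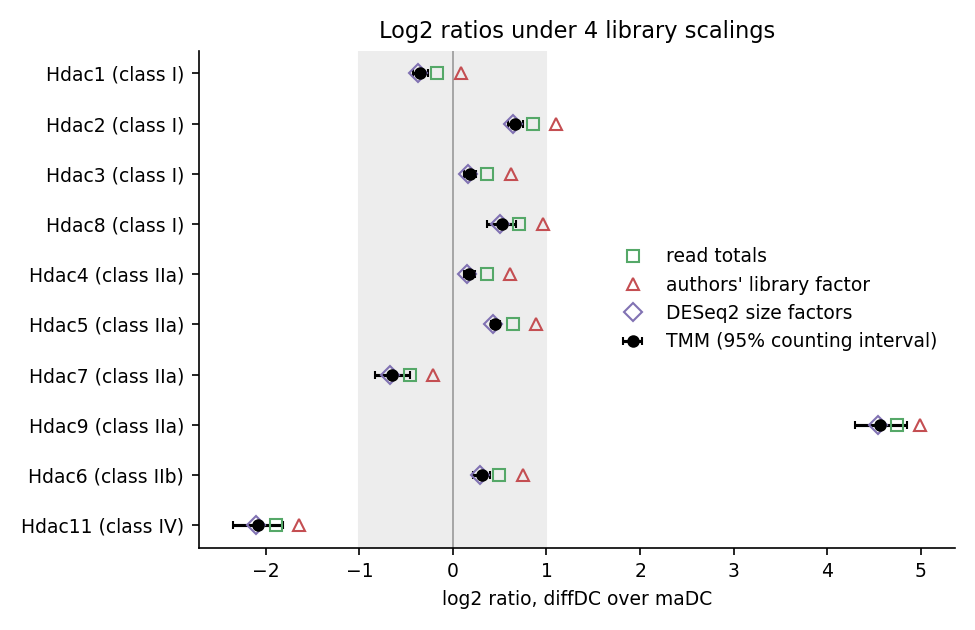
Log2 ratio of diffDC over maDC for each HDAC gene under TMM (with its 95% counting interval), read totals, the library factor of the authors and DESeq2 size factors. The grey band marks ratios under 2-fold; Hdac9, near 4.56, and Hdac11, near -2.08, lie outside it under each scaling, and Hdac2 leaves it at 1.10 with the library factor of the authors.

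The makeup of the 10 genes does not depend on library scaling, though it does rest on the deposited gene lengths. Among these 10 the shares of Hdac9 and Hdac11 changed by the largest factors. Of the summed per-length level of the 10 genes, Hdac9 held 0.363% in maDC and 6.94% in diffDC, and Hdac11 3.30% and 0.632%. Hdac1 went from 19.4% to 12.3% and Hdac2 from 13.8% to 17.7%. Hdac3 held 23.9% and 22.0%, and Hdac5 20.1% and 22.3%. Class I genes together held 60.7% in maDC and 56.2% in diffDC, and class IIa genes 29.8% and 37.0%. The summed level of all 10 genes was 94.8 and 117, and without Hdac9 it was 94.5 and 109.

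**Figure D3:**
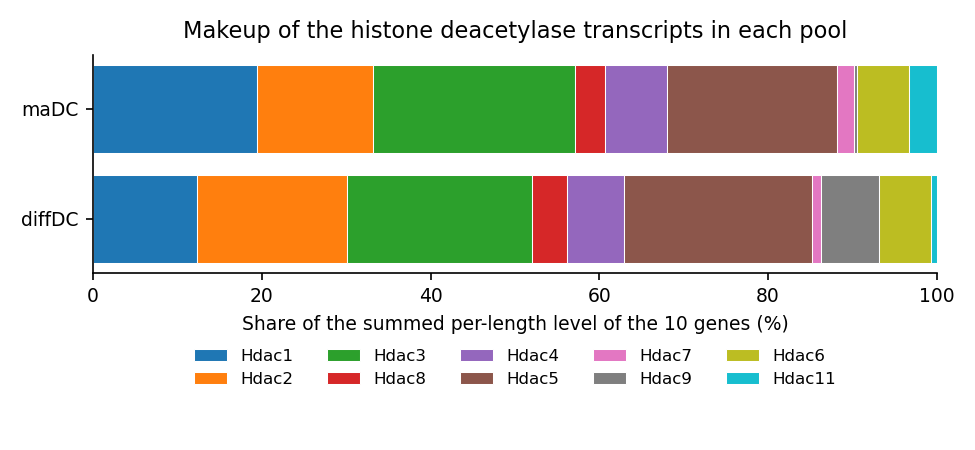
Share of each gene in the summed per-length level of the 10 HDAC genes, in percent, for the maDC and the diffDC pool. The Hdac9 block widens from 0.363% to 6.94%, and the Hdac1 and Hdac11 blocks narrow.

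Within each pool, the counting intervals of most neighbours in level did not overlap. The order also rests on the deposited gene lengths, and no interval covers their error. For Hdac9 that length was 4943.71 bases, beside 14665 annotated exon bases, and for Hdac4 it was 8253.51 beside 15813. The order with other lengths was not tested. In maDC the order was Hdac3, Hdac5, Hdac1, Hdac2, Hdac4, Hdac6, Hdac8, Hdac11, Hdac7 and Hdac9. Neighbours with overlapping intervals there were Hdac5 and Hdac1, at 19.1 and 18.4, and Hdac8 and Hdac11, at 3.40 and 3.13. In diffDC the order was Hdac5, Hdac3, Hdac2, Hdac1, Hdac9, Hdac4, Hdac6, Hdac8, Hdac7 and Hdac11. The overlapping neighbours were Hdac5 and Hdac3, at 26.1 and 25.7, and Hdac9 and Hdac4, at 8.12 and 7.88. By deposited length, Hdac9 in diffDC thus stood level with Hdac4, a paralog that had been far above it in maDC.

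Ratios of reads between paralogs of 1 class were compared between the pools, since library size and gene length cancel in them. For 11 of the 12 pairs the 95% counting interval excluded no change, and 5 pairs changed 2-fold or more. No such counts were made over other gene pairs, so these counts are no result about paralogs. The pairs also share genes, and every pair with Hdac9 is among the 5. In class I, the ratio of Hdac2 to Hdac1 was 0.721 in maDC and 1.46 in diffDC, a 2.02-fold change (interval 1.87 to 2.19). Hdac8 relative to Hdac1 changed 1.83-fold (interval 1.62 to 2.07), and Hdac3 relative to Hdac1 1.45-fold (interval 1.34 to 1.55). All 3 pairs with Hdac1 thus moved against Hdac1. Hdac2 relative to Hdac8 changed 1.10-fold, and this was the pair whose interval, 0.978 to 1.25, included no change.

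In class IIa the ratio of Hdac9 to Hdac4 was 0.0296 in maDC and 0.618 in diffDC, a 20.9-fold change (interval 17.2 to 25.7). Hdac9 changed 17.2-fold relative to Hdac5 (interval 14.3 to 21.2) and 37.0-fold relative to Hdac7 (interval 29.3 to 47.0). These changes restate differences between the log2 ratios given above and are no separate support for the rise of Hdac9. Hdac5 relative to Hdac7 changed 2.15-fold (interval 1.87 to 2.45), Hdac4 relative to Hdac7 1.77-fold (interval 1.54 to 2.03), and Hdac5 relative to Hdac4 1.21-fold (interval 1.15 to 1.28). Reads of 6 members, Hdac1, Hdac3, Hdac4, Hdac5, Hdac7 and Hdac9, carried decimals, so shared reads could have been divided. RefSeq annotates a pseudogene of Hdac1, Hdac1-ps, which is not among the genes of the table.

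**Figure D4:**
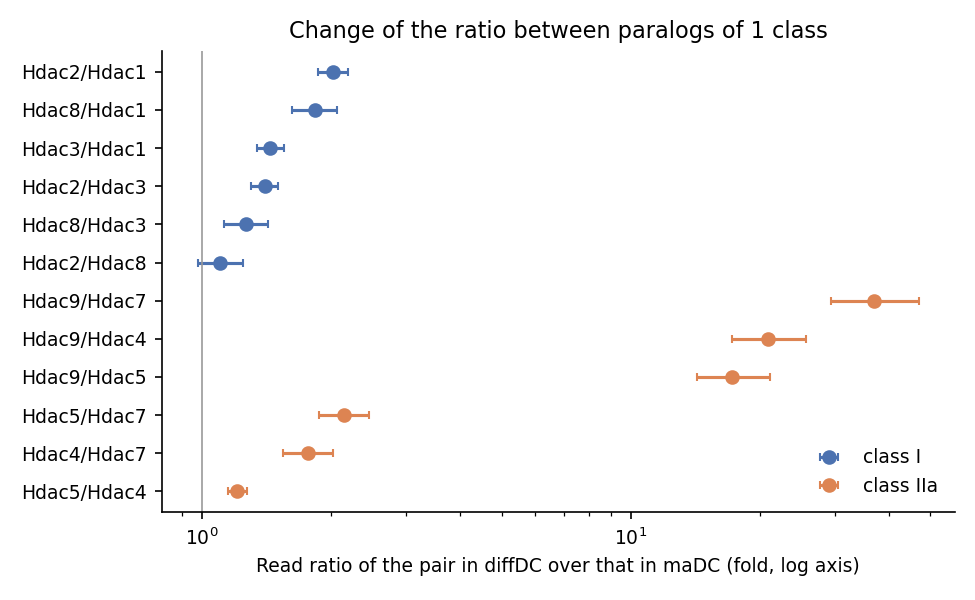
Change of the read ratio of each paralog pair, diffDC over maDC, as a fold on a log axis with exact 95% counting intervals, for 6 class I and 6 class IIa pairs. Pairs with Hdac9 lie between 17.2 and 37.0, and the other 9 lie between 1.10 and 2.15.

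Subunits of the complexes that carry class I enzymes were then counted. Of 44 genes in 5 complexes, 2 rose and 7 fell, with a median log2 ratio of -0.43, beside 44.3% of all genes called and a median of 0.03. With the library factor of the authors, 6 rose and 3 fell and the median was 0.01, so the split between rises and falls turned with the scaling. In NuRD, 0 of 12 genes rose and 2 fell, a share of 16.7% called. The scaffold subunit Gatad2b had 7176.53 reads in maDC and 4554.61 in diffDC, 2.33-fold lower (interval 2.24 to 2.42). The remodeller Chd4, with the most reads of that list, did not pass (log2 ratio 0.13). The histone chaperone Rbbp7 had a log2 ratio of 0.90 by TMM, and 1.34 with the library factor of the authors, where it passed.

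In Sin3, 1 of 15 genes rose and 4 fell, a share of 33.3% called, beside 44.3% of all genes. Sap30, a subunit that binds the Sin3 scaffold, had 3367 reads in maDC and 1518 in diffDC, 3.28-fold lower (interval 3.08 to 3.48). Ing1, a reader of trimethylated histone H3, was 2.81-fold lower (interval 2.66 to 2.97), and Brms1l was 2.35-fold higher (interval 2.03 to 2.74), from 226.46 to 785.03 reads. The scaffold Sin3b, with the most reads in the list, did not pass (log2 ratio -0.73). In CoREST, 1 of 8 genes rose and 1 fell, a share of 25% called. Hmg20b, an HMG-box subunit, was 2.73-fold lower (interval 2.55 to 2.91), and Rcor2 was 3.88-fold higher (interval 2.37 to 6.70) from 19 to 109 reads, while the main scaffold Rcor1 had a log2 ratio of 0.05.

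Neither the 6 genes of NCoR/SMRT nor the 3 of the mitotic deacetylase complex held a called gene. Ncor1, the corepressor that activates Hdac3, had 22872.38 maDC reads and 19869.83 diffDC reads, which gave a log2 ratio of -0.77. Elmsan1, the scaffold of the mitotic deacetylase complex, had a log2 ratio of -0.53. Sap30, Ing1 and Hmg20b were the 3 subunits of the 44 that were also lower with the library factor of the authors, at log2 ratios of -1.28, -1.05 and -1.01.

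Partners and kinases of class IIa enzymes held 7 risers and 3 fallers among 24 genes, and their median log2 ratio of -0.28 became 0.15 with the library factor of the authors. The counts were the same under both. The share called, 41.7%, was near the 44.3% of all genes, so the count is no result about this list. Mef2c, a MEF2 transcription factor that class IIa enzymes bind, had 120.89 reads in maDC and 11685.95 in diffDC, 65.4-fold higher (interval 54.7 to 78.8). Mef2a was 2.46-fold higher (interval 2.40 to 2.51), Mef2d did not pass at a log2 ratio of -0.54, and Mef2b fell from 93 to 15 reads. Of the 4 MEF2 genes, 2 thus rose, 1 fell and 1 did not pass. The stroma markers, at summed levels of 23.9 and 408, and the macrophage markers, at 669 and 7008, rose in the same pools as Mef2c and Hdac9, and their part in either was not tested.

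Of the 5 calmodulin-dependent kinase genes of this list, whose products are known to phosphorylate class IIa enzymes, 3 rose, 1 fell and 1 did not pass. Over all genes, 23.3% rose and 21.0% fell. Camk1 had 519 reads in maDC and 16575 in diffDC, 21.6-fold higher (interval 19.8 to 23.6). Camk1d was 15.8-fold higher (interval 14.2 to 17.6) and Camk2d 2.59-fold higher (interval 2.49 to 2.70), while Camk4 fell from 95.41 to 40.06 reads and Camk2g had a log2 ratio of 0.29. The salt-inducible kinase Sik3 had 6306.26 and 2200.64 reads, 4.23-fold lower (interval 4.03 to 4.45). Of the 5 14-3-3 genes, 1 rose, Ywhab, which was 3.16-fold higher (interval 3.05 to 3.28). Ywhaz, with the most reads of the list, did not pass at a log2 ratio of -0.87, and Ywhae, Ywhag and Ywhaq had log2 ratios of -0.20, -0.82 and -0.36. The last of the 7 risers, Prkd1, had 0 reads in maDC and 10 reads in diffDC, and its counting interval reached down to 1.52-fold.

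Of 10 tubulin and chaperone partners of Hdac6, 1 rose and none fell, with a median log2 ratio of -0.25, which was 0.19 with the library factor of the authors. The share called was 10%, beside 44.3% of all genes. The riser was the tubulin-binding protein gene Tppp, with 3.47 reads in maDC and 96 in diffDC, 18.7-fold higher (interval 7.19 to 107). Hspa8, a constitutive chaperone with the most reads of the list, had 189423.59 and 278912 reads and a log2 ratio of -0.0049.

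Enzymes that add acetyl groups and proteins that read them were counted beside the deacetylases. Of 13 histone acetyltransferases, 1 rose and 2 fell, with a median log2 ratio of -0.22, which was 0.22 with the library factor of the authors. The share called was 23.1%, beside 44.3% of all genes. Kat2a, the catalytic subunit of the SAGA coactivator complex, had 546.59 reads in maDC and 2311.62 in diffDC, 2.86-fold higher (interval 2.61 to 3.15). Hat1, which acetylates newly made histone H4, had 8001 and 2931 reads, 4.03-fold lower (interval 3.87 to 4.21). Kat6b was 2.35-fold lower (interval 2.23 to 2.48) but did not pass with the library factor of the authors, at a log2 ratio of -0.80, and the nuclear receptor coactivator Ncoa3, with the most reads of that list, had a log2 ratio of 0.22.

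Of 14 bromodomain genes, whose proteins bind acetylated lysines, 1 rose and 5 fell, with a median log2 ratio of -0.50. The share called, 42.9%, was near the 44.3% of all genes, so the count is no result about this list. With the library factor of the authors 1 rose and 3 fell, and the median was -0.06. Brd2, a bromodomain protein of the BET family, had 8206.15 reads in maDC and 4471.25 in diffDC, 2.71-fold lower (interval 2.61 to 2.81). Atad2, known to be raised in cycling cells, was 2.13-fold higher (interval 2.06 to 2.20). All 7 proliferation markers rose in the same pools, and their part in the rise of Atad2 was not tested. Cecr2 had 7.29 reads in maDC and none in diffDC, and its counting interval reached down to 2.13-fold. Baz1b, with the most reads of the list, did not pass at a log2 ratio of -0.52.

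**Figure D5:**
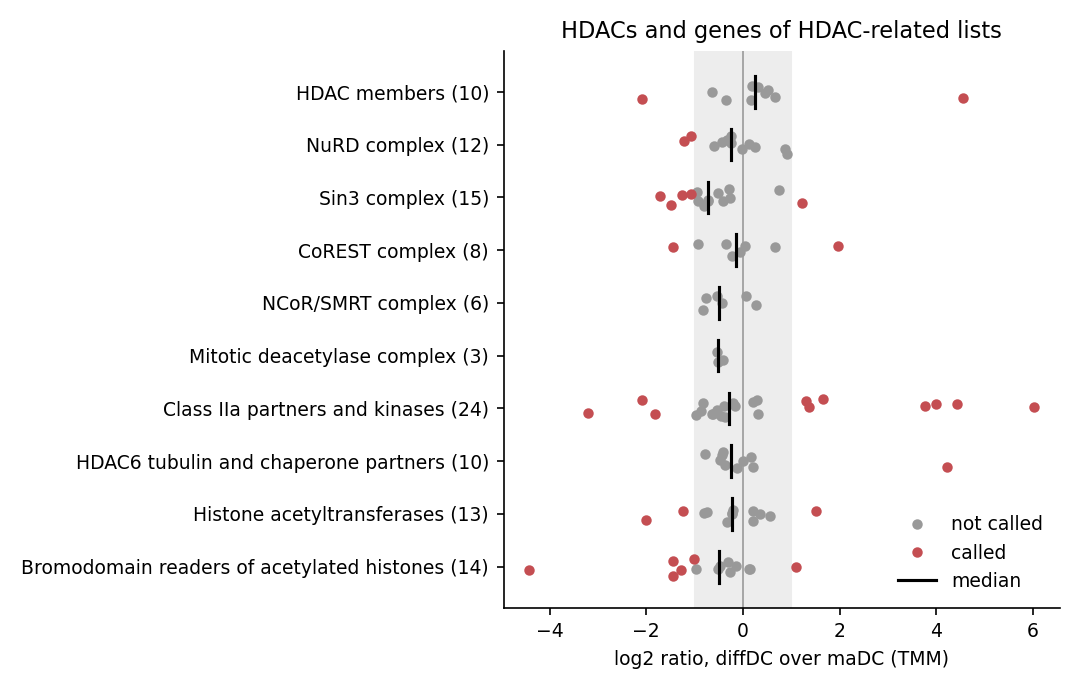
Log2 ratio of diffDC over maDC (TMM) for the 10 HDAC genes and for the genes of 9 HDAC-related lists, with called genes in red, others in grey, a black bar at each median and the number of genes in brackets. The grey band marks ratios under 2-fold; the median of the HDAC genes is at 0.24, and Mef2c, at 6.03, is the point farthest to the right.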

How the data were processed

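The table held 1 pooled value per gene for each group of 3 libraries, and no value for a single library. The authors' deposited read numbers were taken to be estimated counts per gene, since many carried decimals, and they were rounded for intervals. The column headers name 1 read number per group, which was taken as pooled over the libraries of that group. The aligner, the counter, strand use and the way libraries were pooled are not given in the sources used here; GRCm38.p4 and mm10 come from the submitters' processing notes. The deposited log2 ratio column was handled as a score because 1 of its cells held a damaged value, and it gave the authors' library factor. The deposited p-values and q-values were read as given, per the file headers. The authors' deposited gene length, in bases, was used for levels per length.

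Libraries were scaled with TMM factors (edgeR 4.0.16, R 4.3.3), a log2 library ratio of 0.563. A gene was called at 2-fold or more if no difference lay outside its 95% Clopper-Pearson (exact) interval. Read ratios between paralogs carry exact conditional 95% intervals. All intervals cover counting error only. DESeq2 1.42.0 size factors, read totals and the authors' library factor were alternatives. Python 3.11.15, scipy 1.17.1, pandas 2.3.3, numpy 2.4.6 and matplotlib 3.10.9 did the rest, and the procedure was tested on simulated data. The edgeR quasi-likelihood test planned for replicate libraries was not run, because no value per library was held.

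The members, the 17 gene lists and the rules were chosen with earlier results of these data known. All 10 members and 158 of 161 list entries were found by symbol. Each list named its largest called rise and fall among genes averaging 5 CPM or more (counts scaled to the library total) and its gene with the most reads. Gene positions come from GENCODE M21 (GRCm38) and sequences from RefSeq (GRCm38.p6). Other list genes were named after their values were seen. Some results, among them that of the B cell markers, are not reported here.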

Additional observations from a re-analysis of the deposited data

How the results depend on the processing

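Hdac9 was called under each of the 7 alternatives and Hdac11 under the 6 that kept it. Some of these could not remove either call. The 1.5-fold limit is looser, and the use of 1 read for 0 leaves genes with reads in both pools unchanged. The count of higher HDAC genes, 1, was 2 with the authors' library factor and 2 at 1.5-fold, Hdac2 being added. The count of lower ones, 1, was 2 at 1.5-fold, with Hdac7, and 0 among genes of at least 5 CPM, because the mean of Hdac11 was 4.17 CPM. That filter tests fewer genes and gave 2073 higher and 1677 lower over all genes, against 3562 and 3204. Corepressor subunits, 2 higher and 7 lower, were 4 higher with read totals, 6 higher and 3 lower with the authors' library factor, 6 higher and 16 lower at 1.5-fold, and 1 higher at 5 CPM. The other 4 HDAC-related lists, 10 higher and 10 lower, had 19 lower at 1.5-fold. Of all 15282 genes, 4733 were higher and 4307 lower at 1.5-fold, and 4095 higher and 2811 lower with read totals. Leaving out a library was not possible with pooled values. No paired analysis was possible because the columns carry no replicate numbers. Depth limits Hdac9 in maDC most, at 110.41 reads, and spread between cultures is not covered by any interval.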
